A study of Mus musculus with 8 samples.

Results

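The cadherin-catenin adhesion genes of the mouse lens fiber cell (FC) were followed in mice exposed to cigarette smoke (CS) and in untreated control (Ct) mice. The 10 genes were taken by name: the cadherin Cdh2, its catenin partners Ctnna1, Ctnna2, Ctnnb1, Ctnnd1, Ctnnd2, Jup and Arvcf, and the immunoglobulin-type adhesion genes Ncam1 and Cadm1. They are 10 of 35275 genes in the expression table, each with 1 entry. RNA was sequenced from 8 libraries, 4 of each group, and each library was made from pooled right-eye FC of 4 mice of the strain labelled C57BL/6, which the study's methods give as C57BL/6J. CS mice were kept in smoke 5 hours a day on 5 days a week for 3.5 months, from before birth, and Ct mice were age-matched and not exposed. The labels name the same strain and no other genotype for both groups. Per the study's methods the pools are of male or of female mice, and the sample labels do not give the sex of each pool.

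Fiber cells are the elongated cells that fill the lens, and they stay packed in ordered rows because neighbouring membranes are held together along their whole length. A classical cadherin on one cell binds the same cadherin on the next. Inside the cell, beta-catenin or plakoglobin binds the cadherin tail and alpha-catenin, which holds on to actin, while p120-catenin and its relatives bind the part of the tail next to the membrane and slow the removal of the cadherin from the surface. N-cadherin, the product of Cdh2, is the cadherin known for fiber cells, and E-cadherin, the product of Cdh1, is known for the lens epithelium. NCAM1 and CADM1 are adhesion proteins with immunoglobulin domains.

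None of the 10 genes differed between CS and Ct FC beyond the spread between libraries. Of the 10 genes 0 had a p under 0.05 in limma (two-sided, on log2 of FPKM, fragments per kilobase of transcript, scaled to library size, plus 0.1), where 4.83% of the 9794 genes tested did, and 0 had groups that did not overlap, where 3.08% of genes tested did. By limma-voom on the recovered reads 0 of the 10 genes had a p under 0.05 as well. The estimated log2 fold change of CS over Ct was above 0 for 3 genes and below 0 for 7, and lay between -0.15 and 0.09. Its median size without sign was 0.06 on the log2 scale, against 0.08 over all genes tested. Their levels spread widely, from 263 FPKM for Arvcf to 1.18 FPKM for Ctnnd1, a span of 223-fold.

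The libraries held an estimated 18100000 to 23300000 fragments each, recovered from the smallest steps in the FPKM. The fiber cell label was met: 11 of 11 fiber genes such as crystallins passed the filter on low values, and their summed level was 311816 to 321112 FPKM in Ct and 302700 to 314619 FPKM in CS. The summed markers of other cells were far lower, though this did not hold gene by gene. The fiber gene Lim2 was at 6.47 to 8.62 FPKM, below the lens epithelium genes Foxe3 and Pax6 in every library. The 9 photoreceptor genes summed to 11.5 to 31.2 FPKM in Ct and 33.9 to 98.3 FPKM in CS, with 8 of 9 higher in CS at p under 0.05, and the 5 lens epithelium genes to 56.5 to 115.9 FPKM in Ct and 47.1 to 76.1 FPKM in CS, with 0 of 5 past that threshold. The 6 pigment epithelium genes summed to 0.466 to 1.07 FPKM in Ct and 1.16 to 3.89 FPKM in CS, with Best1 listed at 0 in every library and the 1 gene tested, Rpe65, higher in CS at p under 0.05. Neuron genes summed to at most 1.91 FPKM, and fibroblast and endothelium genes to at most 0.736 FPKM, while blood and immune genes reached 20.9 FPKM in CS replicate 4 and at most 4.05 FPKM elsewhere, with 1 of 2 tested higher in CS at p under 0.05. In bulk RNA, fewer cells of a type and less RNA per cell cannot be told apart.

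One library stood apart. Xist was at most 0.0113 FPKM in replicates 1 and 2 of both groups and 41.1 to 49.0 FPKM in replicates 3 and 4. The Y-linked gene Ddx3y was at 6.25 to 7.92 FPKM in the 4 libraries with low Xist and at most 0.0953 FPKM in 3 of the 4 with high Xist, but at 2.28 FPKM in Ct replicate 3, which thus held both. The same library had the highest value of all 5 lens epithelium genes. Results are therefore also given without it, and without it the count of the 10 genes with p under 0.05 was again 0, with a lowest p of 0.104 for Cadm1 in limma, and apart from Ctnnd1 the log2 fold changes lay between -0.13 (Ctnnd2) and 0.10 (Cadm1).

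**Figure D1:**
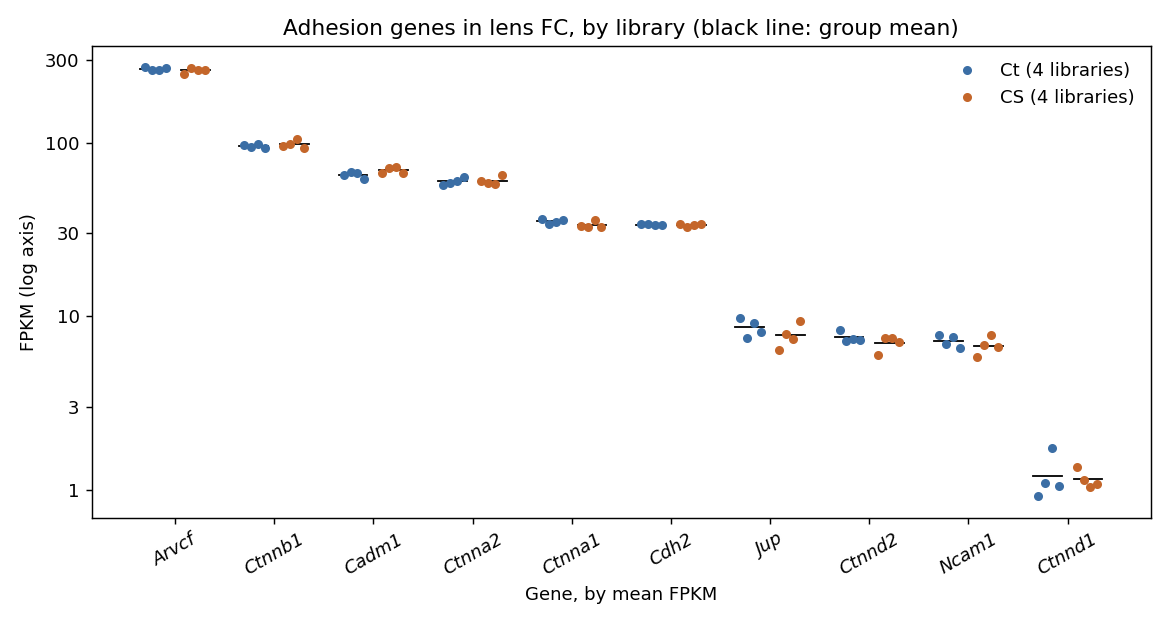
FPKM of the 10 genes in each library on a log axis, with 4 Ct libraries in blue and 4 CS libraries in orange and the mean of each group as a black line. Levels run from 263 FPKM on average for Arvcf to 1.18 FPKM for Ctnnd1, and the Ct and CS points overlap for every gene.

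Cdh2, the gene of N-cadherin (chr18:16588877-16809246, minus strand, GRCm38), was the steadiest of the 10. It was at 33.9, 34.1, 33.3 and 33.7 FPKM in Ct replicates 1 to 4 and at 33.8, 32.7, 33.6 and 34.0 FPKM in CS replicates 1 to 4. The highest of the 8 libraries was at 1.04 times the lowest, and the groups overlapped. The within-group SD was 0.0194 on the log2 scale, where counting error alone would give about 0.025 at this depth, and 1 of the 9794 genes tested had a smaller one. The mean was 33.7 ± 0.325 FPKM in Ct and 33.5 ± 0.549 FPKM in CS (SD, n = 4), a log2 fold change of -0.01 (SE 0.05) with limma adjusted p = 0.995. Its 95% interval ran from 0.924-fold to 1.07-fold. The SE and this interval rest on the spread as moderated by limma, not on the SD of Cdh2 alone.

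Ctnnb1 (chr9:120929216-120960507, plus strand) encodes beta-catenin, which both links cadherin to alpha-catenin and carries the Wnt signal to the nucleus. It was at 97.3, 94.5, 97.5 and 92.7 FPKM in Ct and at 96.0, 97.9, 104.4 and 93.1 FPKM in CS. CS replicate 3 was the highest library and Ct replicate 4 the lowest, and the groups overlapped. CS exceeded Ct by 0.03 (SE 0.05) on the log2 scale, with limma adjusted p = 0.985. The difference was 0.0027 without CS replicate 3, 0.020 without Ct replicate 4 and 0.057 without CS replicate 4.

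Jup (chr11:100368958-100397763, minus strand) encodes plakoglobin, the close relative of beta-catenin that also joins desmosomes. It was at 9.76, 7.54, 9.10 and 8.07 FPKM in Ct and at 6.39, 7.94, 7.42 and 9.40 FPKM in CS. The lowest value was that of CS replicate 1, while CS replicate 4 stood above 3 of the 4 Ct libraries. Jup had the largest estimated change of the 10, a log2 fold change of -0.15 (SE 0.12), and 27.6% of all genes tested had a larger one in either direction. The value and its rank rested on single libraries: it was -0.06 without CS replicate 1, -0.09 without Ct replicate 1 and -0.24 without CS replicate 4, and at least 1 other of the 10 genes had a larger value without CS replicate 1, CS replicate 3, Ct replicate 1 or Ct replicate 3. The limma adjusted p was 0.961, and the interval reached from 0.749-fold to 1.08-fold.

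Because Ctnnb1 and Jup are relatives, reads from one could in principle be taken for the other, so their coding sequences (GENCODE M21, GRCm38) were compared. Over 2201 aligned bases 71.4% were identical. The longest exactly shared run was 20 bases, and it is shown in capitals within 60 bases of each coding sequence. It lies in exon 7 of Ctnnb1 (chr9:120952922-120952941, plus strand) and in exon 6 of Jup (chr11:100380606-100380625, minus strand).
Ctnnb1: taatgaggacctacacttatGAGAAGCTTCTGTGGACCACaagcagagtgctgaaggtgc
Jup: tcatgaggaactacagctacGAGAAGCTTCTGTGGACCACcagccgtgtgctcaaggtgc
Outside the capitals the sequences differ every few bases, so a window of 100 bases tells the 2 genes apart. No window of 100 bases in any annotated Jup transcript occurs in another gene's transcripts. In Ctnnb1 564 of 5620 such windows do, all of them in Ulk4, a gene on the opposite strand whose exons overlap 759 bases of Ctnnb1 and which was at 2.59 FPKM on average.

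The alpha-catenins connect the complex to actin. Ctnna1, the widely expressed alpha-E-catenin (chr18:35118859-35254779, plus strand), was at 36.3, 34.0, 35.0 and 35.8 FPKM in Ct and at 32.9, 32.5, 35.9 and 32.5 FPKM in CS. In 3 CS libraries it lay below all Ct libraries, and in CS replicate 3 it lay above 3 of the 4. On the log2 scale CS differed from Ct by -0.08 (SE 0.05), with limma adjusted p = 0.956.

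Ctnna2, the alpha-N-catenin known chiefly from neurons (chr6:76881637-77979699, minus strand), was the more abundant alpha-catenin per length. It was at 57.3, 58.3, 60.4 and 63.4 FPKM in Ct and at 59.8, 58.6, 57.7 and 65.1 FPKM in CS. Replicate 4 was the highest library in both groups, and the groups overlapped. Between groups the log2 fold change was 0.01 (SE 0.06), with limma adjusted p = 0.995. The coding sequences of Ctnna1 and Ctnna2 were 75.8% identical over 2702 aligned bases with a longest shared run of 35 bases, and 0% of the 100-base windows of either occur in another gene. Neuron markers summed to 0.331 to 1.19 FPKM in Ct and 0.363 to 1.91 FPKM in CS, below Ctnna2 in each of the 8 libraries. The photoreceptor genes summed to 61.3 FPKM in CS replicate 2 and 98.3 FPKM in CS replicate 3, above Ctnna2 in these libraries. The part of such cells in the level of Ctnna2 was not tested.

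The p120-catenin family genes among the 10 were the most uneven. Arvcf (chr16:18348182-18407076, plus strand), whose protein binds the cadherin tail at the p120 site, was the highest of all 10 genes and above 98.3% of the genes tested. It was at 271.1, 261.3, 261.0 and 270.1 FPKM in Ct and at 248.6, 267.9, 260.8 and 263.1 FPKM in CS. CS replicate 1 was the lowest library, and the groups overlapped. The mean was 266 ± 5.46 FPKM in Ct and 260.1 ± 8.23 FPKM in CS (SD, n = 4), a log2 fold change of -0.03 (SE 0.04) with limma adjusted p = 0.985, and it was -0.010 without CS replicate 1.

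Ctnnd2 (chr15:30172593-31029341, plus strand) encodes delta-catenin, a member of the same family known chiefly from neurons. It was at 8.32, 7.24, 7.38 and 7.33 FPKM in Ct and at 5.95, 7.51, 7.48 and 7.07 FPKM in CS. The high value of Ct replicate 1 and the low value of CS replicate 1 stood apart, and the other 6 libraries lay between 7.07 and 7.51 FPKM. Its log2 fold change was -0.11 (SE 0.10), with limma adjusted p = 0.962, and it was -0.039 without CS replicate 1 and -0.069 without Ct replicate 1. For the protein, CTNND2, the study reports elevated levels in FC of CS mice, measured in left eyes. RNA and protein are different measures, and the protein values were not examined here.

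Ctnnd1 (chr2:84600071-84650765, minus strand), the gene of p120-catenin itself, was the lowest of the 10, and 6.64% of the genes tested had a lower mean. It was at 0.917, 1.10, 1.74 and 1.05 FPKM in Ct and at 1.36, 1.14, 1.03 and 1.08 FPKM in CS. Ct replicate 3, the library with the highest epithelial markers, was the highest, and whether the one bears on the other was not tested. The log2 fold change was -0.02 (SE 0.23) with limma adjusted p = 0.995, and without Ct replicate 3 it turned to 0.16 (SE 0.22), while without Ct replicate 1 it was -0.13. The precision was the poorest of the 10, at 116 to 258 reads per library and an interval from 0.698-fold to 1.39-fold.

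The level of Ctnnd1 also has a counting limit. A gene model on the same strand, Gm28635, shares 4482 of its exonic bases (61.2%), and 52.4% of the 100-base windows of Ctnnd1 transcripts occur in it. The table holds no entry under that name, and how reads lying in both were counted was not given in the sources used here. The coding sequences of Arvcf and Ctnnd2 were also compared. These coding sequences were 66.4% identical over 2796 aligned bases, and the longest shared run was 15 bases, in exon 14 of Ctnnd2 (chr15:30887103-30887117, plus strand) and exon 7 of Arvcf (chr16:18400094-18400108, plus strand). It is shown in capitals, within 60 bases of each, because the 2 genes differ so widely in level.
Ctnnd2: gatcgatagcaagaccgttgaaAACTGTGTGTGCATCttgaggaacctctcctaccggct
Arvcf: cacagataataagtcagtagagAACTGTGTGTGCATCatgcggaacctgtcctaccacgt
Of the 100-base windows of Ctnnd2 0% occur in another gene.

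The shares of related genes among the 10 were then compared between libraries. Ctnna1 made up 36.4% of the summed FPKM of Ctnna1 and Ctnna2 on average, from 33.3% to 38.8% over the 8 libraries. Ctnnb1 made up 92.2% of Ctnnb1 plus Jup, from 90.8% to 93.8%. Of the 3 p120-catenin family genes among the 10, Arvcf made up 96.9%, Ctnnd2 2.68% and Ctnnd1 0.436% of the summed FPKM, the last ranging from 0.327% to 0.646%. With Pkp4, a plakophilin-like gene of the same class that is not among the 10, added to the sum, Arvcf held 89.4%, Pkp4 7.75%, Ctnnd2 2.47% and Ctnnd1 0.402%. The Ct and CS ranges overlapped for each share: Ctnna1 held 37.1 ± 1.17% in Ct and 35.7 ± 2.08% in CS, Ctnnb1 91.7 ± 0.739% and 92.6 ± 1.30%, and Arvcf, of the sum without Pkp4, 96.8 ± 0.172% and 97.0 ± 0.139% (SD, n = 4). These shares are given as a description with no test. They compare transcripts per length, not protein.

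**Figure D2:**
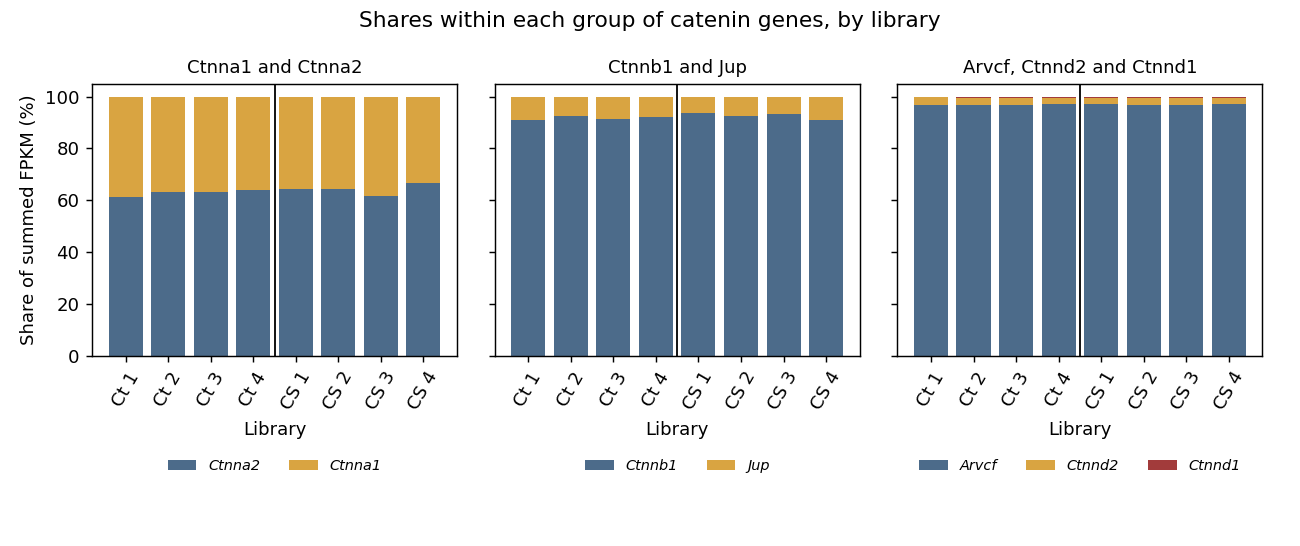
Share of the summed FPKM (%) held by each gene within Ctnna1 and Ctnna2, within Ctnnb1 and Jup, and within Arvcf, Ctnnd2 and Ctnnd1 (Pkp4 left out), one bar per library, Ct left and CS right of the line. Ctnna2 holds most of the first sum, Ctnnb1 90.8% to 93.8% of the second and Arvcf 96.6% to 97.1% of the third, where Ctnnd1, at most 0.646%, shows only as a thin line at the top.

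Set against Cdh2 in the same library, Ctnnb1 was at a median ratio of 2.85 (2.74 to 3.11 over the 8 libraries), Ctnna2 at 1.78 (1.69 to 1.92), Ctnna1 at 1.02 (0.956 to 1.07) and Arvcf at 7.80 (7.35 to 8.18), on the FPKM scale. Ctnnd1 was at a ratio of 0.032 (0.027 to 0.052). The 2 alpha-catenin genes together were at 0.970 times the level of Ctnnb1 (0.897 to 1.07). In every library Cdh2 was below Ctnnb1, below the 2 alpha-catenin genes summed and below Arvcf.

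The 2 immunoglobulin-type genes lay far apart. Cadm1 (chr9:47530173-47857637, plus strand), a nectin-like adhesion gene, came after Arvcf and Ctnnb1 in level, at 64.7, 67.6, 66.7 and 61.5 FPKM in Ct and at 66.4, 71.8, 72.2 and 66.5 FPKM in CS. In CS replicates 2 and 3 it lay above every Ct library, while CS replicates 1 and 4 lay within the Ct range. The log2 fold change was 0.09 (SE 0.05), an interval from 0.983-fold to 1.15-fold, and its unadjusted p was the lowest of the 10 genes (limma adjusted p = 0.956 over all genes tested). CS replicates 2 and 3 were also the libraries with the highest summed photoreceptor level, at 61.3 and 98.3 FPKM, and the part of these cells in the value of Cadm1 was not tested.

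Ncam1 (chr9:49502136-49798925, minus strand), a neural cell adhesion gene also known from lens fibers, was at 7.77, 6.88, 7.57 and 6.52 FPKM in Ct and at 5.84, 6.79, 7.81 and 6.66 FPKM in CS. CS replicate 1 was the lowest library and CS replicate 3 the highest, so that the CS values enclosed those of Ct. Ncam1 differed by -0.09 (SE 0.10) on the log2 scale, with limma adjusted p = 0.985. The difference was -0.020 without CS replicate 1, -0.049 without Ct replicate 1, -0.13 without Ct replicate 4 and -0.16 without CS replicate 3.

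**Figure D3:**
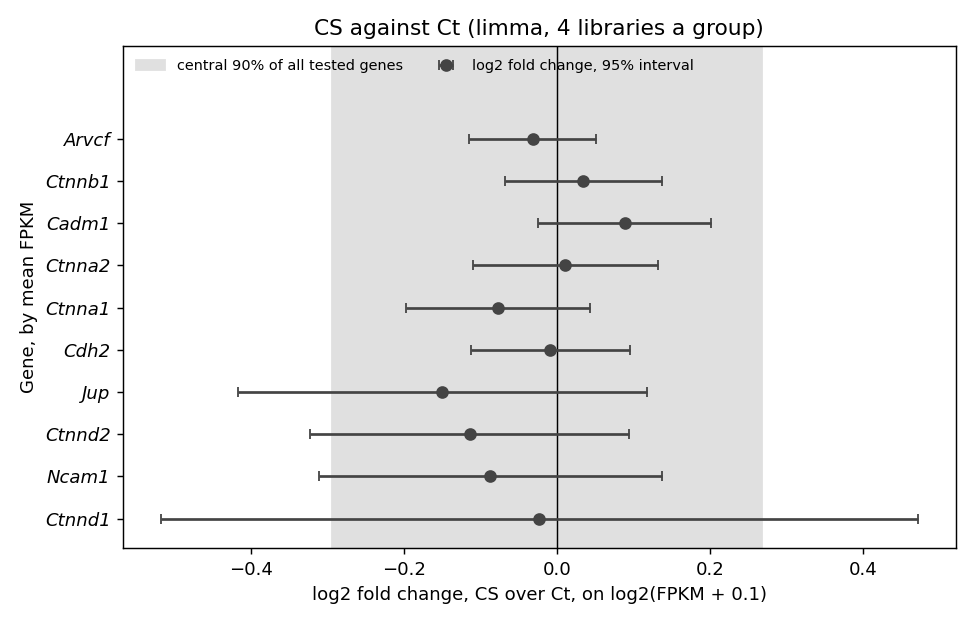
Estimated log2 fold change of CS over Ct on log2(FPKM + 0.1) for each gene (points) with its 95% interval from limma (bars), and the central 90% of all 9794 genes tested, from -0.29 to 0.27 (grey). Every interval includes 0, and that of Ctnnd1 is the widest.

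For 6 of the 10 genes (Arvcf, Ctnnb1, Cadm1, Ctnna2, Ctnna1 and Cdh2) the 95% interval lay within 0.25 on the log2 scale of no change, a change of less than 1.19-fold either way. For Jup, Ctnnd2, Ncam1 and Ctnnd1 larger changes in at least one direction lay inside the interval. Of the 10 genes 9 had at least 400 reads in every library. The median within-group SD was 0.07 on the log2 scale for the 10 genes and 0.17 over all genes tested, and genes with more reads have smaller counting error.

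In order of level the 10 genes ran Arvcf, Ctnnb1, Cadm1, Ctnna2, Ctnna1, Cdh2, Jup, Ctnnd2, Ncam1 and Ctnnd1. Neighbours whose ranges overlapped were Cadm1 and Ctnna2 (Cadm1 higher in 7 of 8 libraries), Ctnna1 and Cdh2 (4 of 8), Jup and Ctnnd2 (7 of 8) and Ctnnd2 and Ncam1 (6 of 8), and the other neighbours did not overlap in any pair of libraries. Of the 10 genes 6 were above 30 FPKM, where 10.9% of all genes tested were at or above that level and the median gene was at 4.68 FPKM. The FPKM rest on 1 length per gene. That length equals the longest annotated transcript for 6 of the 10 genes. Among these is Cadm1, whose longest transcript, of 4767 bases, is annotated as a retained intron and not as protein-coding. For Ncam1 the length is 3629 bases where the longest transcript has 6564, so that on the longer length Ncam1 would be at 3.86 FPKM. Per base of all annotated exons, Ctnna2 would pass Cadm1, Cdh2 would pass Ctnna1 and Ctnnd2 would pass Jup, and the other places would stay.

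Across libraries, CS replicate 1 had the lowest value of 4 of the 10 genes (Arvcf, Jup, Ctnnd2 and Ncam1), where it was the lowest library for 13.7% of all genes tested. Ct replicate 1 had the highest value of 4 (Arvcf, Ctnna1, Jup and Ctnnd2), where it was the highest for 12.7%, and CS replicate 3 of 3 (Ctnnb1, Cadm1 and Ncam1), against 19.6%. Within the 4 libraries with low Xist, Jup, Ctnnd2 and Ncam1 were lower in CS by log2 differences of -0.26, -0.21 and -0.21, and within the 4 with high Xist the differences were -0.04, -0.02 and 0.04. Ctnnd1 showed the widest split, at 0.29 within the libraries with low Xist and -0.34 within those with high Xist. With 2 libraries of a group in each, these are values with no test. The direction was alike in both for 6 of the 10 genes and opposite for Cdh2, Ctnna2, Ctnnd1 and Ncam1.

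**Figure D4:**
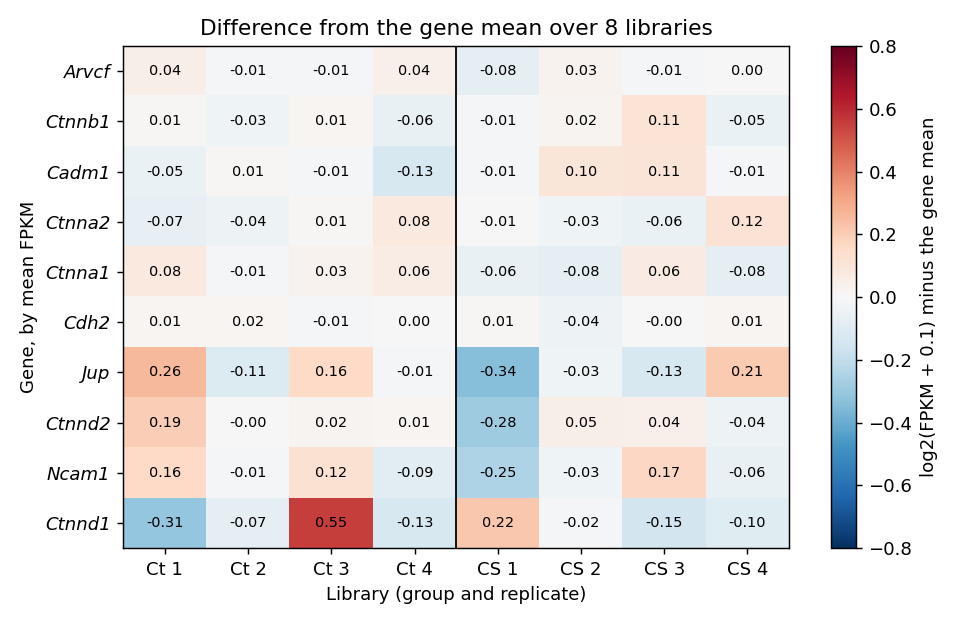
Difference of log2(FPKM + 0.1) from the gene's mean over 8 libraries, genes in rows by level and libraries in columns, Ct left and CS right of the line, red above and blue below the mean. The 6 most abundant genes stay within 0.13 of their means, and Jup, Ctnnd2 and Ncam1 are at their lowest in CS replicate 1.

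Among further genes of the adhesion system 1 passed the same test. Of 133 listed genes of cadherins, catenin relatives, junction linkers, desmosomes, immunoglobulin-type adhesion, cadherin turnover and beta-catenin signalling, 73 passed the filter on low values and 5 were listed at 0 in every library. Of the 73, 38 had a fold change above 0 and 35 below, 1 was higher in CS at p under 0.05 (2.75% of all genes tested were), and 0 were lower (2.08%). Adjusted over all genes tested, 0 passed, against 0.0102% of all genes.

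The exception was Adam10, the protease that sheds cadherins from the cell surface, 1 of 11 tested genes of cadherin turnover. It was at 26.1, 26.2, 23.7 and 24.3 FPKM in Ct and at 28.2, 27.1, 31.8 and 26.1 FPKM in CS. CS replicate 4 lay within the Ct range and the other 3 CS libraries above it. The log2 fold change was 0.17 (SE 0.07), past 0.05 before adjustment, with limma adjusted p = 0.956. CS replicate 3, its highest library, also had the highest photoreceptor markers, and without it the log2 fold change was 0.11 and no longer passed 0.05 before adjustment. Nor did it without Ct replicate 3 (0.14), Ct replicate 4 (0.16) or CS replicate 1 (0.17). The same held with the trend of the variance left out (0.17) and with the replicate block (0.17). Ptprf, a receptor phosphatase of the same list, was at 41.2 ± 1.92 FPKM in Ct and 39.1 ± 1.02 FPKM in CS (SD, n = 4).

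Among the other cadherins 9 of 32 were tested and 0 passed, with a median log2 fold change of -0.14 where that of all genes tested was 0.00427. The median was -0.02 over the 8 that could be tested without Ct replicate 3, and -0.05 over the 9 without CS replicate 1 or without CS replicate 4. It was -0.18 without CS replicate 3, and -0.10 to -0.12 with any other library left out. The highest was Fat1, a giant atypical cadherin, at 26.4, 27.8, 34.8 and 29.3 FPKM in Ct and at 24.8, 26.9, 27.4 and 25.1 FPKM in CS. Ct replicate 3 was again the highest library, and no CS library reached the Ct median. Its log2 fold change was -0.18 (SE 0.08) with limma adjusted p = 0.956, and -0.09 without Ct replicate 3. It did not pass 0.05 before adjustment in the test as designed. It did in limma-voom on recovered reads (adjusted p = 0.954), with median centring, quantile normalization, the replicate block or a term for Xist, and without Ct replicate 1 (log2 fold change -0.23). Celsr2, a cadherin of planar cell polarity, was at 8.47 ± 0.941 FPKM in Ct and 8.31 ± 0.761 FPKM in CS (SD, n = 4).

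Cdh4, the R-cadherin gene and a close relative of Cdh2, was at 3.78 ± 0.414 FPKM in Ct and 3.36 ± 0.312 FPKM in CS (SD, n = 4), with limma adjusted p = 0.956. Its coding sequence was 70.1% identical to that of Cdh2 over 2655 aligned bases, with a longest shared run of 19 bases. Cdh1, the epithelial cadherin gene and one of the epithelium markers above, was at 2.26, 3.09, 6.22 and 2.98 FPKM in Ct and at 2.10, 3.70, 4.17 and 2.22 FPKM in CS. It stayed below Cdh2 in every library and was highest in Ct replicate 3. Its log2 fold change was -0.21 (SE 0.30, limma adjusted p = 0.985), and 0.08 without that library. Cdh11, a cadherin of mesenchyme, was at most 0.153 FPKM.

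Of 9 catenin relatives 6 were tested and 0 passed. Pkp4, a plakophilin-like member of the p120 class, was at 22.3 ± 0.793 FPKM in Ct and 23.3 ± 0.554 FPKM in CS (SD, n = 4), a log2 fold change of 0.06 (SE 0.06) with limma adjusted p = 0.974, and 0.040 without Ct replicate 4. It thus stood above both Ctnnd2 and Ctnnd1. Vcl, the gene of the alpha-catenin relative vinculin, was at 1.02 FPKM on average, and Ctnna3, a further alpha-catenin gene, at 0.352 FPKM. Ctnnbl1 was at 14.2 FPKM. Of 23 junction linkers 20 were tested, 15 with a fold change above 0 and 5 below, and 0 passed. Tjp1 (zonula occludens protein) was at 29.8 FPKM, Zyx (zyxin) at 21.3 FPKM and Afdn (afadin) at 9.54 FPKM on average.

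Of 8 desmosome genes 3 were tested and 0 passed. Perp, a desmosomal membrane protein, was at 71.1 FPKM and passed 0.05 before adjustment without CS replicate 4, and the plakin Ppl was at 34.6 FPKM. Of 22 immunoglobulin-type adhesion genes 8 were tested and 0 passed. Bsg (basigin) was at 145 FPKM and Nrcam at 78.9 FPKM, while Ncam2 was at most 0.0189 FPKM and Cadm4 at 0.213 FPKM on average.

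Beta-catenin also acts in Wnt signalling, where Axin2 is a direct target gene and the Lef1 product a nuclear partner. Of 24 genes of this list 16 were tested, 8 with a fold change above 0 and 8 below, and 0 passed. Axin2 was at 2.00, 1.49, 2.19 and 1.62 FPKM in Ct and at 2.18, 2.09, 2.04 and 2.28 FPKM in CS. All 4 CS libraries lay above the Ct median, but the groups overlapped at Ct replicate 3, and the log2 fold change of 0.24 (SE 0.15) had limma adjusted p = 0.956 and was 0.15 without Ct replicate 2. Csnk1a1, a kinase that marks beta-catenin for breakdown, was at 52.8 ± 2.74 FPKM in Ct and 56.8 ± 1.85 FPKM in CS (SD, n = 4), with a log2 fold change of 0.10 (SE 0.05) and limma adjusted p = 0.956, and 0.069 without Ct replicate 4. It passed 0.05 before adjustment without Ct replicate 2. Fbxw11, of the ubiquitin ligase that follows, was at 14.9 FPKM and Lef1 at most 0.0454 FPKM.

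**Figure D5:**
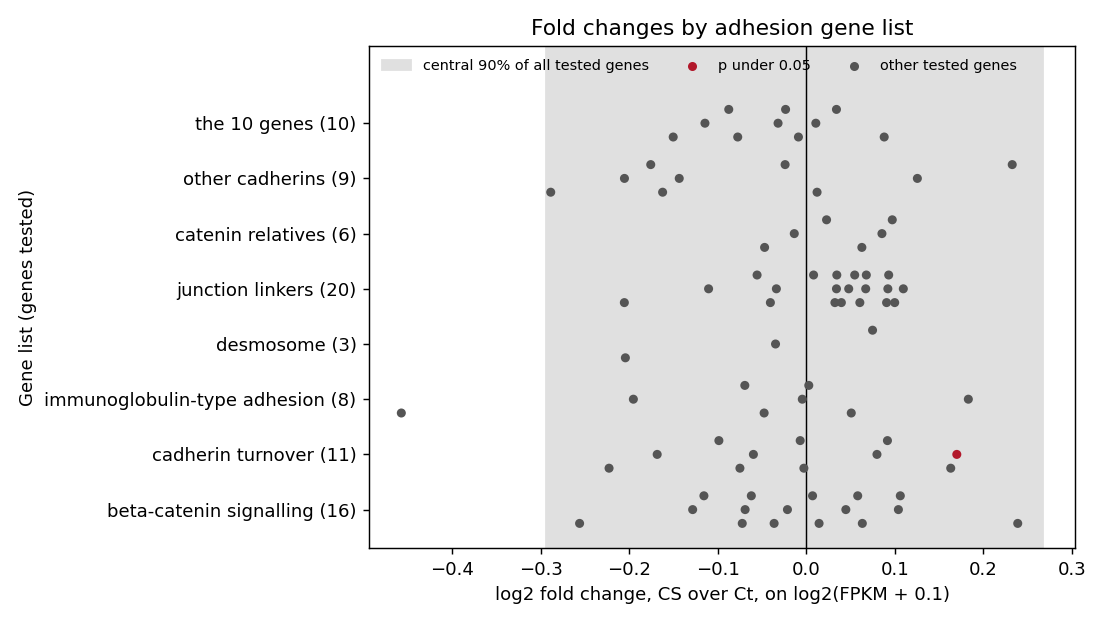
Log2 fold change of CS over Ct for each tested gene (points, spread vertically within a row to avoid overlap) of the 10 genes and of the 7 further lists, with the number tested, and the central 90% of all genes tested in grey. The only point with p under 0.05, in red, is Adam10 in the cadherin turnover row.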

How the data were processed

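The authors aligned reads with STAR 2.5 and counted them with HTSeq 0.6.1 on GRCm38 (submitters' processing notes), and deposited FPKM per library. Strand and annotation release are not given in the sources used here. The authors also deposited group means, a log2 fold change and p-values of their own group comparison (DESeq2), which were not used. Groups came from the sample labels. The 10 genes and the gene lists were chosen with earlier results of these data known. Of 35275 genes, the 9794 whose mean reached 1.0 FPKM in Ct or in CS were tested with limma 3.58.1 in R 4.3.3 (lmFit and eBayes with trend) on log2(FPKM + 0.1), two-sided, with group as the only term and p-values adjusted by Benjamini-Hochberg across the tested genes, a scale on which the changes of low genes come out too small. Named from the further lists were the 2 genes highest in mean FPKM in each, those with p under 0.05, and Cdh1, Cdh4, Cdh11, Ctnna3, Pkp4, Vcl, Afdn, Ncam2, Cadm4, Axin2 and Lef1. FPKM were whole multiples of 1 read for 9772 of 9794 genes (99.8%, tolerance 0.02 reads), which gave reads for limma-voom. Coding sequences were aligned with Biopython 1.88. Pools were taken as separate samples. The SE, intervals and p-values rest on the spread between pools after limma moved it toward that of genes of similar level.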

Additional observations from a re-analysis of the deposited data

Results flagged for a closer look

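In 3 of 58 groups of 4 libraries one value lay far from the other 3, by Dixon's criterion at 95%, and chance gives about 1 in 20 groups, or 2.90 here. Ctnna1 was at 35.9 FPKM in CS replicate 3, against 32.5 to 32.9 FPKM in the other CS libraries. Ctnnd2 was at 8.32 FPKM in Ct replicate 1, with the other Ct libraries at 7.24 to 7.38 FPKM. Ptprf reached 44.1 FPKM in Ct replicate 1, where its other Ct values were 40.2 to 40.3 FPKM.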

How the results depend on the processing

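The count of the 10 genes with p under 0.05 was 0 under every alternative run (pseudocounts of 1 and 0.01, other filters, median centring, quantile normalization, limma without trend or robust, limma-voom on recovered reads, the replicate block, a term for Xist added after seeing the data, and each library left out), with a lowest p of 0.058 for Jup without CS replicate 4. Directions turned for Ctnna2 under quantile normalization (-0.0083) and, over libraries left out, within -0.015 to 0.0025 for Cdh2, -0.027 to 0.039 for Ctnna2 and -0.13 to 0.16 for Ctnnd1, and for Cdh1 (-0.39 to 0.082) and Vcl (-0.13 to 0.071, not tested without Ct replicate 3). Quantile normalization also moved Arvcf to -0.056, Cdh2 to -0.037 and Ctnnb1 to 0.017. The count of further adhesion genes was 2 with no minimum (Adam10 and Cadm4), and 2 with median centring, quantile normalization, limma-voom or the Xist term (Adam10 and Fat1), and 0 to 2 with a library left out. With limma without trend it stayed at 1, with Dsc2 in place of Adam10. Over all genes 473 had p under 0.05, 862 with no minimum and 226 with a minimum mean of 5 FPKM, where fewer genes were tested.

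Same-numbered Ct and CS libraries share low or high Xist, but were not taken as pairs, since not every correlation was over 0.1: correlations of their deviations were 0.012, 0.078, 0.111 and 0.161, and CS replicate 1 correlated best with Ct replicate 2. With the replicate block 522 genes had p under 0.05 over all genes, 0 of the 10 genes, and 1 further adhesion gene (Fat1, with log2 fold change -0.18, in place of Adam10, at 0.17).

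Levels depend on the length used. Per base of all annotated exons they would be 188 FPKM for Arvcf, 67.5 for Ctnnb1, 36.0 for Ctnna2, 30.7 for Cadm1, 20.2 for Cdh2, 19.8 for Ctnna1, 4.18 for Ctnnd2, 4.08 for Jup and 2.92 for Ncam1, and Ctnnb1 would hold 94.3% of Ctnnb1 plus Jup. Depth limits Ctnnd1 most, at 116 to 258 reads a library.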
